A study of Mus musculus with 16 samples.

Results

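The transcriptome of mouse colon was compared between mice that lack NCoR1 in the intestinal epithelium and their controls, both without any challenge. The mice of both groups were C57BL/6 animals of 8 weeks given plain water. The control group, F/F naive, carried NCoR1F/F, a genotype that the labels call wild type. The deleted group, DIEC naive, carried NCoR1DIEC, labelled ko, and the labels name neither the transgene nor the promoter that drives the deletion. Each library held the combined RNA of 3 mice, so that the 4 libraries of a group stood for 12 mice and the spread between libraries was a spread between pools. These 8 libraries, of 16 in the series, were chosen by their labels alone. The other 8 came from mice of both genotypes given 2.5% dextran sulfate sodium (DSS), which injures the colon lining, and sampled on day 3.

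NCoR1 is a large scaffold protein of the cell nucleus. Nuclear receptors without an activating ligand bind it, and it brings to their target genes a complex that contains the histone deacetylase HDAC3, the WD-repeat proteins TBL1X and TBLR1 (encoded by Tbl1xr1) and GPS2, and that keeps these genes low. Receptors known to bind it include those for thyroid hormone, retinoic acid, vitamin D and oxysterols (LXR) and the fatty acid receptors of the PPAR family, and the REV-ERB repressors of the circadian clock recruit it too. The colon epithelium absorbs sodium, water and butyrate, oxidises that butyrate as fuel, and secretes mucus and antibacterial proteins.

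Values are scaled reads, that is, the reads counted over the exons of a gene, scaled by the authors to the same total in every library. Values for the 4 libraries of a group are given in the order of their numbers, 1 to 4. A gene was called where its adjusted p, from limma with Benjamini-Hochberg adjustment over 18267 genes, was under 0.05, and "rose" and "fell" are used of called genes only. The log2 changes are DIEC naive minus F/F naive on log2(value + 1), with their standard errors (SE).

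The 8 libraries held 19957413 to 29183138 reads on genes. Genes of colon epithelium were among the strong signals in both groups, with Car1, a carbonic anhydrase of the colon surface, at 63629, 54732, 53885 and 65532 in F/F naive and 87016, 106699, 62223 and 99402 in DIEC naive, and Hoxb13, a homeobox gene of the posterior body, at 6941 or more in each. The gastric gene Gkn1 was at 0 in all 8 libraries and Lct, the lactase of small intestine, at no more than 13.3. Both are from a list of 14 genes of small intestine and stomach, of which 10 had values high enough for testing. None of the 10 was called, with log2 changes of -1.95 to 1.1 and a median of -0.09. At an unadjusted p under 0.05 in limma 1 and 2 were higher and lower. Of the other tests used below, edgeR called 1 lower and DESeq2 2. A pair of libraries stood apart. Pancreatic acinar genes took 2.19% of the reads of DIEC naive 1 and between 0.0428% and 0.451% of those of the other 7, and F/F naive 4 was far below the other control libraries in a group of secreted crypt proteins described further on.

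In unchallenged colon 408 genes differed with the deletion of NCoR1, more of them higher than lower. Of the 18267 genes tested, 408 were called (2.23%), of which 258 rose (1.41%) and 150 fell (0.821%). The groups of 4 did not overlap in 246 of the genes that rose and in 148 of those that fell, against 10.7% of all genes tested. An unadjusted p under 0.05 was reached by 13.8% of all genes tested, 6.01% higher and 7.82% lower. The rises had a median log2 change of 0.63 and the falls of -0.59, while that of all genes tested was -0.05, and a change of at least 2-fold was reached by 63 rises and 31 falls. With edgeR on the recovered reads 475 of 15793 genes were called (3.01%; 2.15% higher and 0.855% lower) and with DESeq2 843 (5.34%; 3.67% higher and 1.67% lower), and after TMM rescaling limma called 448 (2.45%; 1.77% higher and 0.678% lower). A model of only the 8 libraries without DSS called 611 genes, 295 higher and 316 lower. Of the rises 245 were also called by edgeR, of the falls 119, and 132 and 62 kept their call whichever of the 8 libraries was left out. The total was 269 without F/F naive 2, 233 without F/F naive 3 and 290 to 386 without any 1 of the other 6 libraries. In the authors' deposited table of this comparison 330 genes were higher and 317 lower by the same threshold, of which 329 were called here in the same direction and 0 in the opposite one. The 329 were 80.6% of the calls made here and 50.9% of those in the authors' deposited table.

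**Figure D1:**
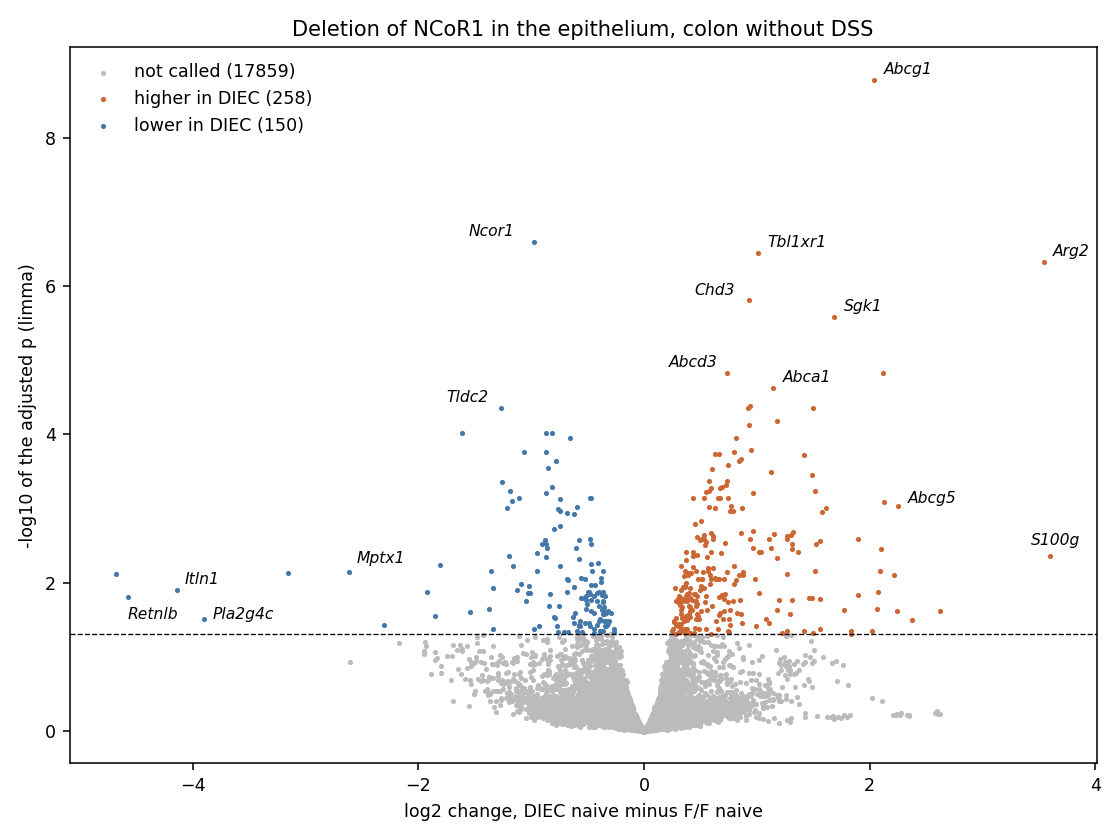
Each point is 1 of 18267 genes, with the log2 change of DIEC naive minus F/F naive on the x axis and -log10 of the adjusted p from limma on the y axis; the dashed line marks an adjusted p of 0.05, and the 258 rises and 150 falls are coloured. Abcg1 has the smallest adjusted p (1.7e-09), S100g and Arg2 lie farthest to the right (log2 changes of 3.6 and 3.54), and Retnlb and Itln1 lie far to the left (-4.57 and -4.14).

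Ncor1 itself (mm9 chromosome 11, 62129928 to 62252017, minus strand) fell, while both genes of the TBL1 family rose and the other measured parts of the complex did not pass the test. Ncor1 was at 3445, 3730.4, 3585 and 3680.1 in F/F naive and 1823, 1756, 1978 and 1805 in DIEC naive. The highest DIEC library lay well under the lowest F/F library, and the means were 1.96-fold apart (log2 change -0.97 ± 0.07 SE, adjusted p = 2.6e-07). Reads were counted over all exons and the tissue holds cells other than epithelium, so that these values say nothing of how much of the epithelium lost the gene. Tbl1xr1 (mm9 chromosome 3, 21975574 to 22115516, plus strand), whose protein holds HDAC3 in the complex and exchanges corepressors for coactivators, was at 2063, 1882, 2043 and 1922 in F/F naive and 3899, 4035, 4379 and 3654 in DIEC naive. The groups were far apart, with the means 2.02-fold higher in DIEC (log2 change 1.01 ± 0.08 SE, adjusted p = 3.6e-07). Tbl1x, the paralog on the X chromosome, was at 1059, 1076, 1075 and 1209 in F/F naive and 1813, 1520.5, 1924 and 1807 in DIEC naive, again without overlap (log2 change 0.67 ± 0.1 SE, adjusted p = 0.00053). Hdac3 had a log2 change of 0.06 ± 0.06, adjusted p = 0.72 and Gps2 of 0.09 ± 0.08, adjusted p = 0.63. Of the 13 genes listed for the corepressor complex, 2 rose and 1, Ncor1, fell, with a median log2 change of 0.03. Another chromatin gene, Chd3, the helicase of the NuRD deacetylase complex, was at 2271, 2279.7, 2340.0 and 2707 in F/F naive and 4682, 4370.3, 4846 and 4347 in DIEC naive. It rose without overlap (log2 change 0.93 ± 0.08 SE, adjusted p = 1.6e-06).

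Among 38 tested genes of nuclear receptors none rose, 6 and 2 were higher and lower at an unadjusted p under 0.05 in limma (against 6.01% and 7.82% of all genes tested), edgeR called 2 higher and DESeq2 4. Nr1h3, which encodes LXRα, fell. It was at 780.4, 741.3, 673.8 and 883.6 in F/F naive and 566.7, 488.6, 504.3 and 634.1 in DIEC naive, which left a gap between the groups (log2 change -0.49 ± 0.11 SE, adjusted p = 0.014). Nr1h2, the gene of LXRβ, had a log2 change of 0.02 ± 0.07, adjusted p = 0.94, and the vitamin D receptor Vdr of 0.34 ± 0.12, adjusted p = 0.2. The call of Nr1h3 was lost without F/F naive 4 (adjusted p = 0.053), DIEC naive 2 (0.06) or DIEC naive 3 (0.05).

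The genes of cholesterol export had the largest rises among the targets of LXR, the oxysterol receptors that protect cells from sterol overload. Abcg1 (mm9 chromosome 17, 31194639 to 31254926, plus strand), which moves cholesterol to lipoprotein particles, was at 232.4, 205.3, 226.6 and 206.7 in F/F naive and 916.6, 850.8, 967.3 and 862.4 in DIEC naive. The lowest DIEC library was more than 3 times the highest F/F library, and the means were 4.13-fold apart (log2 change 2.04 ± 0.11 SE, adjusted p = 1.7e-09). Abca1 (mm9 chromosome 4, 53043661 to 53172767, minus strand), which loads cholesterol onto apolipoprotein A-I, was at 965.7, 626.6, 848.5 and 703.8 in F/F naive and 1881, 1562, 1814 and 1606 in DIEC naive, again with no overlap (log2 change 1.14 ± 0.12 SE, adjusted p = 2.3e-05). Abcg5 and Abcg8 encode the partners of a pump that returns sterols to the gut lumen and lie head to head with 197 bp between them (Abcg5 on mm9 chromosome 17, 85057574 to 85082263, minus strand, Abcg8 on mm9 chromosome 17, 85082461 to 85099673, plus strand). Abcg5 was at 363.8, 233.3, 195.9 and 241.8 in F/F naive and 1393, 1431, 767.7 and 1372 in DIEC naive and rose 4.8-fold (log2 change 2.25 ± 0.29 SE, adjusted p = 0.00094). DIEC naive 3 was the lowest of its group and still above every F/F library. Abcg8 was at 176.3, 106, 89.7 and 135.4 in F/F naive and 441.7, 344, 262.1 and 394 in DIEC naive (log2 change 1.52 ± 0.21 SE, adjusted p = 0.00058), with DIEC naive 3 lowest there as well.

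Lpcat3, which builds polyunsaturated phospholipids, rose from 2458 ± 229 to 3816 ± 434 (means ± SD of 4 libraries each; log2 change 0.63 ± 0.08 SE, adjusted p = 0.00019), and Smpdl3a, a secreted nucleotide phosphodiesterase, from 10839.9 ± 1319.5 to 15049 ± 2331 (log2 change 0.47 ± 0.11 SE, adjusted p = 0.02). Of the 15 LXR targets tested, 6 rose and 1, Nr1h3 itself, fell, which is 46.7% called, and the median log2 change was 0.47. Others on the list did not pass: Srebf1, the regulator of lipogenesis, had a log2 change of 0.43 ± 0.14, adjusted p = 0.13, Mylip, which degrades the LDL receptor, of 0.45 ± 0.13, adjusted p = 0.096, and Apoe of -0.28 ± 0.21, adjusted p = 0.6. Smpdl3a was not called once F/F naive 2 or 3 (adjusted p = 0.055 and 0.091) or DIEC naive 2 (0.071) was left out.

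The promoter of Abca1 is shown because LXR, as a dimer with RXR, is known to bind direct repeats with 4 bases between the copies (DR4). It is the RefSeq window of build GRCm38.p6, chr4:53159846-53160145, minus strand, from 250 bases before to 50 after the start site, written 5′ to 3′ on the gene's strand. Both of its strands were searched for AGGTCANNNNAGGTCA with up to 3 mismatches, and capitals mark the only match.
Abca1: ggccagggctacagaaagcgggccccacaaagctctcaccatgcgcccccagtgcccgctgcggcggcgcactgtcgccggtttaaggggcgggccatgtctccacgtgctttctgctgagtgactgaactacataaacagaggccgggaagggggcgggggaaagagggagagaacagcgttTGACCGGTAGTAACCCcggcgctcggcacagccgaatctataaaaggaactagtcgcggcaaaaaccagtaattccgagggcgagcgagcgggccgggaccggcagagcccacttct
The match lies on the strand opposite to the gene, 59 bases before the start site at its centre, and has 3 mismatches. Such a match is common: 21.9% of all 32851 windows hold one, 22.5% of the 209 genes that rose and have a window, and 22.0% of the 13413 tested genes that have one. A match is a description of the letters only.

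Of the lists examined, fatty acid oxidation held the most called genes, all higher and by small steps. Of 33 genes tested, 15 rose (45.5%) and none fell, 21 and 0 being higher and lower at an unadjusted p under 0.05 and 16 and 0 called by edgeR, with a median log2 change of 0.27. The rises covered the way from import to the last steps of β-oxidation. Abcd3 (mm9 chromosome 3, 121461828 to 121518133, minus strand), a peroxisomal transporter of fatty acids, was at 5210.5, 5565, 6019 and 5816 in F/F naive and 8845, 9170.1, 10172 and 9439.7 in DIEC naive. All DIEC libraries lay above all F/F libraries (log2 change 0.73 ± 0.07 SE, adjusted p = 1.5e-05). Slc25a20 (mm9 chromosome 9, 108564429 to 108586972, plus strand), the carnitine and acylcarnitine carrier of the inner mitochondrial membrane, was at 5899, 7579, 5727 and 7694 in F/F naive and 10668, 11271, 11206 and 11421 in DIEC naive, also without overlap (log2 change 0.74 ± 0.1 SE, adjusted p = 0.00026). Cpt1a and Cpt2, the carnitine palmitoyltransferases on either side of that carrier, rose by 0.57 ± 0.11 and 0.57 ± 0.08 (adjusted p = 0.0063 and 0.00043).

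Acadl, the long-chain acyl-CoA dehydrogenase, was at 4673, 5079, 4843 and 4827 in F/F naive and 6735, 6140.1, 8329 and 7889 in DIEC naive and rose (log2 change 0.57 ± 0.09 SE, adjusted p = 0.00096). Ehhadh, the bifunctional enzyme of peroxisomal oxidation, was at 1739.5, 1691, 1552 and 1953 in F/F naive and 2586, 2744, 2291 and 2405 in DIEC naive and rose (log2 change 0.53 ± 0.08 SE, adjusted p = 0.00073). The groups overlapped in neither. Hadha and Hadhb, the subunits of the mitochondrial trifunctional protein, rose by 0.34 and 0.42, Acaa2, the mitochondrial thiolase, by 0.51, and Etfa and Etfdh, which pass the electrons on, by 0.29 and 0.35. Decr1, Hadh, Acadvl and Acot2 made up the rest, the last of these with a near-identical neighbour, Acot1, so that its count is uncertain. The medium-chain and short-chain dehydrogenases were not called, Acadm with a log2 change of 0.1 ± 0.08, adjusted p = 0.58 and Acads with 0.04 ± 0.09, adjusted p = 0.89. Without single libraries Acadvl was lost in 6 of 8 cases (adjusted p of 0.079 to 0.14, all but F/F naive 4 and DIEC naive 2), and Acot2 without F/F naive 2 (0.065) or DIEC naive 3 (0.058).

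Among targets of PPARα and genes of ketone body synthesis 5 of 25 rose and none fell, 8 and 0 being higher and lower at an unadjusted p under 0.05 and 5 and 0 called by edgeR, with a median log2 change of 0.41. Vnn1, a pantetheinase of the cell surface, was at 62.9, 48.2, 44.8 and 37.2 in F/F naive and 115.9, 148.3, 146.4 and 81.3 in DIEC naive (log2 change 1.32 ± 0.22 SE, adjusted p = 0.0021), and its groups were apart. Mgll, which releases fatty acids from monoglycerides, rose from 1172 ± 192 to 2111 ± 187 (log2 change 0.86 ± 0.11 SE, adjusted p = 0.00021), and Plin2, a coat protein of lipid droplets, from 7058 ± 1071 to 10292 ± 1306 (log2 change 0.55 ± 0.12 SE, adjusted p = 0.015). Pdk4, the kinase that shuts pyruvate dehydrogenase, was at 135.9, 263.2, 325.7 and 202.6 in F/F naive and 445.1, 468.6, 589.4 and 303.8 in DIEC naive (log2 change 0.99 ± 0.24 SE, adjusted p = 0.038). Here the highest F/F library and the lowest DIEC library overlapped, and the call was lost without any of 6 single libraries (0.057 to 0.11, all but F/F naive 3 and DIEC naive 4) and with edgeR (0.053). Plin2 was lost without F/F naive 2 or 3 (0.05 and 0.07) or DIEC naive 2 or 4 (0.065 and 0.05). The receptor genes Ppara and Ppard had log2 changes of 0.14 ± 0.12, adjusted p = 0.62 and 0.28 ± 0.08, adjusted p = 0.077.

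The promoter of Slc25a20 is shown because PPAR with RXR is known to bind direct repeats with 1 base between the copies (DR1). The window is chr9:108661886-108662185, plus strand of GRCm38.p6, cut in the same way. Both strands were searched for AGGTCANAGGTCA with up to 2 mismatches, and capitals mark the only match.
Slc25a20: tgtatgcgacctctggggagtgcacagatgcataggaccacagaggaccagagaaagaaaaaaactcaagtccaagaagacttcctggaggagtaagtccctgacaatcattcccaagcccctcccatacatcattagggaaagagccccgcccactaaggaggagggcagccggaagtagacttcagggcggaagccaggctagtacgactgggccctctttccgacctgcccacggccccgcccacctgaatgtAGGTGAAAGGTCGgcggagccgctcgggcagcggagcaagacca
Its centre lies 12 bases after the start site, on the gene's own strand. Such a match is in 3.86% of all windows, in 6.22% of the 209 genes that rose and in 3.93% of the tested genes.

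Other routes of lipid metabolism held few calls. Of 21 lipogenic genes 2 rose and 1 fell (14.3%, median log2 change 0.04): Acacb, the acetyl-CoA carboxylase at the mitochondrial surface, rose by 0.94 ± 0.16 (adjusted p = 0.0026), Elovl6, a fatty acid elongase, by 0.59 ± 0.1 (adjusted p = 0.0021), and Agpat2, an acyltransferase of triglyceride synthesis, fell by 0.48 ± 0.07 (adjusted p = 0.00073). Fasn, the fatty acid synthase, had a log2 change of 0.04 ± 0.22, adjusted p = 0.95. Of 24 genes of cholesterol synthesis and uptake none was called by limma, edgeR or DESeq2, and 0 and 1 were higher and lower at an unadjusted p under 0.05. Msmo1, a sterol oxidase of the synthesis, had a log2 change of -0.16 ± 0.3, adjusted p = 0.85. Of 29 subunits of oxidative phosphorylation 1 rose, Sdhd of complex II (log2 change 0.31 ± 0.08 SE, adjusted p = 0.036). That call was lost without F/F naive 1, 2 or 3 or DIEC naive 1 or 2 (0.066 to 0.15). Of the 29 subunits, 27 had positive log2 changes, with a median of 0.1. At an unadjusted p under 0.05 in limma 8 and 0 were higher and lower, against 6.01% and 7.82% of all genes tested. DESeq2 called 4 of them higher and edgeR 1.

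Apob, the protein core of chylomicrons, was one of the larger falls, at 1789, 1528, 1629.6 and 2933 in F/F naive and 992.3, 794.4, 638.7 and 603.7 in DIEC naive. The groups did not overlap, and F/F naive 4 was the highest library (log2 change -1.36 ± 0.24 SE, adjusted p = 0.007). Bco2 (mm9 chromosome 9, 50341192 to 50363243, minus strand), which cleaves carotenoids, was at 560.4, 680.5, 511 and 458.8 in F/F naive and 1828, 1842, 1386 and 1239.8 in DIEC naive and rose 2.85-fold (log2 change 1.5 ± 0.16 SE, adjusted p = 4.4e-05). Of 19 genes of retinoid metabolism and retinoic acid targets only Retsat, a retinol saturase, was called (log2 change 0.33 ± 0.07 SE, adjusted p = 0.013), and 4 and 1 were higher and lower at an unadjusted p under 0.05, against 6.01% and 7.82% of all genes tested. Without F/F naive 3 (0.065) or DIEC naive 1 (0.06) Retsat did not pass.

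**Figure D2:**
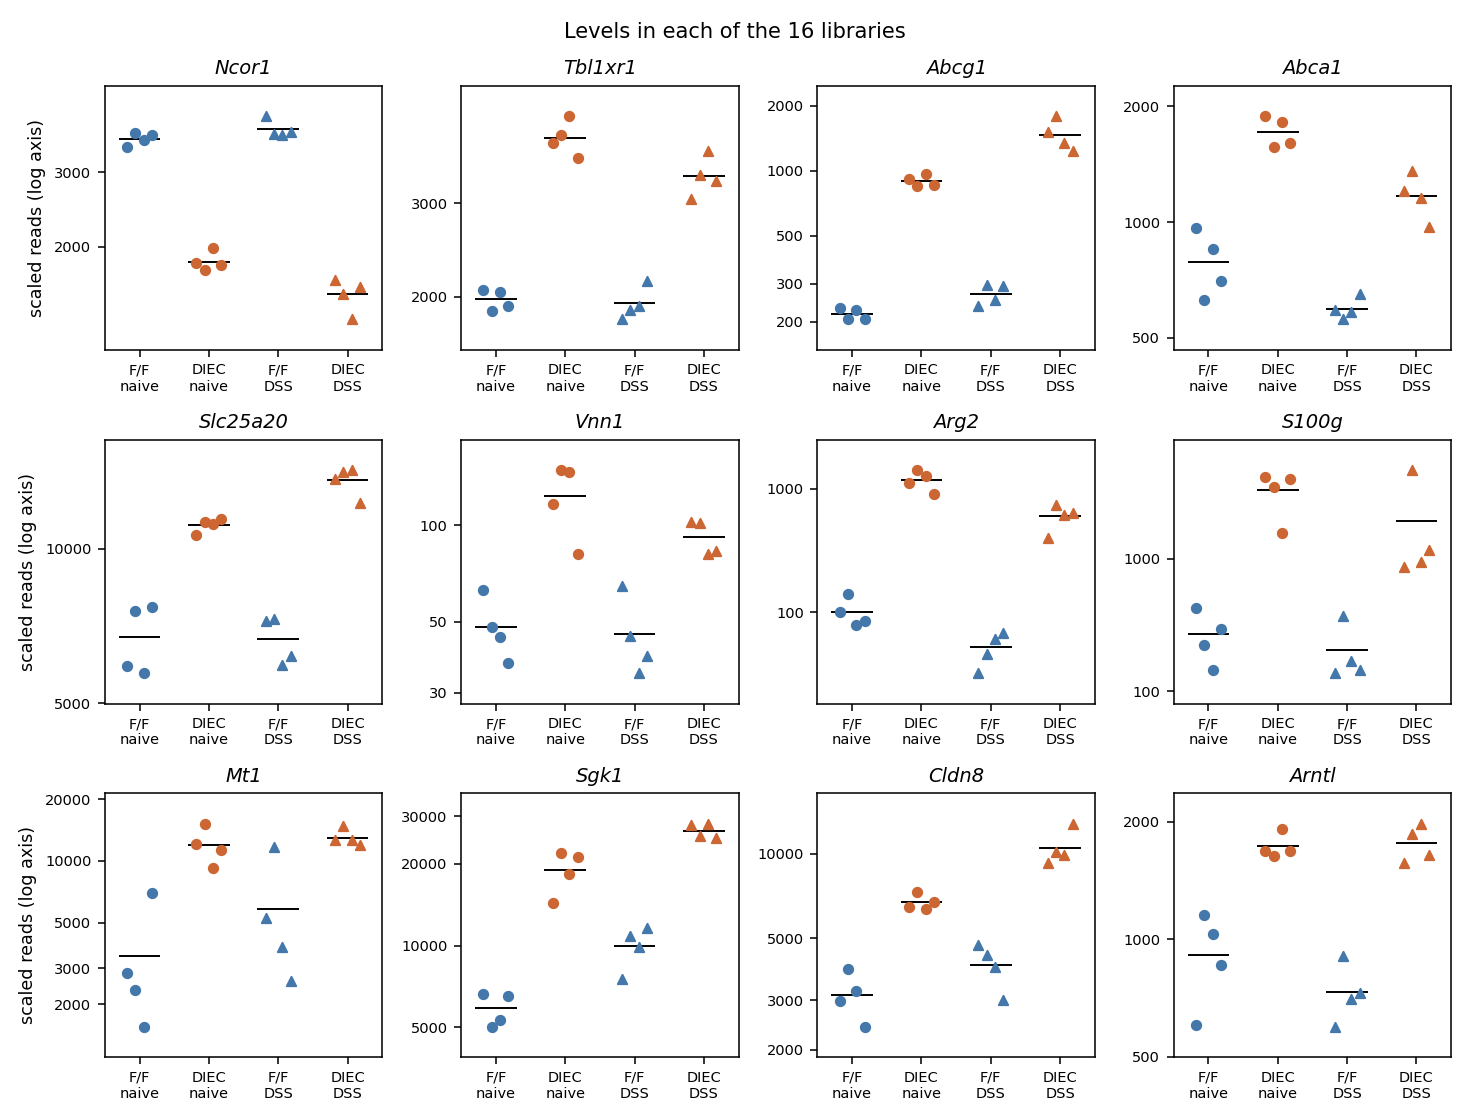
Scaled reads (log axis) of 12 genes in each of the 16 libraries, as circles without DSS and triangles with DSS, blue for F/F and orange for DIEC, with the group mean as a bar. The 12 were picked from the called genes whose groups do not overlap without DSS, as those of 10.7% of all genes tested do not. Abcg1, for example, runs from 205.3 to 232.4 in F/F and from 850.8 to 967.3 in DIEC.

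Genes of calcium uptake, classical targets of the vitamin D receptor, were among the rises. S100g (mm9 chromosome X, 159399924 to 159402531, minus strand), which encodes calbindin-D9k, the buffer that ferries calcium through the cell, was at 423.4, 224.6, 144 and 296.6 in F/F naive and 4108, 3489, 1554 and 3972 in DIEC naive. The lowest DIEC library, number 3, was still more than 3 times the highest F/F library, and the means were 12.1-fold apart (log2 change 3.6 ± 0.56 SE, adjusted p = 0.0044). Trpv6, the calcium channel of the luminal membrane, was at 506.4, 348.9, 265.5 and 336.9 in F/F naive and 1059, 996.4, 940.7 and 922.2 in DIEC naive. Its groups did not overlap (log2 change 1.46 ± 0.29 SE, adjusted p = 0.016). Atp2b1, the calcium pump of the basolateral membrane, rose from 6831 ± 304 to 9260.5 ± 630.0 (log2 change 0.44 ± 0.08 SE, adjusted p = 0.0038). With Slc30a10, a manganese exporter that vitamin D induces (log2 change 1.22 ± 0.29 SE, adjusted p = 0.048), 4 of the 9 genes tested on this list rose and none fell (44.4%, median log2 change 0.34). Of all genes tested 2.23% were called. At an unadjusted p under 0.05 in limma 5 and 1 of the 9 were higher and lower, and the lowest log2 change was -1.18. The call of Trpv6 was lost without F/F naive 2 or 3 (0.052 and 0.065) or DIEC naive 1 (0.053), and that of Slc30a10 without any single library other than F/F naive 1 (0.058 to 0.15).

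Carriers of other ions rose as well. Slc34a2, a sodium-dependent phosphate cotransporter, was at 572.7, 756.7, 735.2 and 1066 in F/F naive and 1761, 2102, 2400.3 and 2914 in DIEC naive and its groups did not overlap (log2 change 1.56 ± 0.31 SE, adjusted p = 0.017). Slc30a1, the exporter of zinc, was at 1227, 1004, 1004 and 1418 in F/F naive and 2404, 2581, 1939 and 2571 in DIEC naive and the means were 2.04-fold apart (log2 change 1.03 ± 0.17 SE, adjusted p = 0.0038). Mt1, a metallothionein, which binds zinc and copper, was at 2829.8, 2338, 1549 and 6971 in F/F naive and 12139.5, 15194, 9272 and 11355 in DIEC naive. F/F naive 4 lay far above the other F/F libraries and below every DIEC library (log2 change 2.02 ± 0.47 SE, adjusted p = 0.045). Mt2, the neighbouring metallothionein, was at 918.6, 944.6, 503.9 and 3250.2 in F/F naive and 2999, 2446, 1658 and 1749 in DIEC naive and its groups overlapped (log2 change 0.98 ± 0.65 SE, adjusted p = 0.55). Slc30a1 overlaps 1700034H15Rik, so its reads are uncertain in part. Mt1 was called with all 8 libraries and without F/F naive 4 (log2 change 2.44, adjusted p = 0.0089), was lost without any 1 of the other 7 (0.069 to 0.13), and had an adjusted p of 0.092 with edgeR. Slc34a2 was lost without F/F naive 1, 2 or 3 or DIEC naive 4 (0.052 to 0.059).

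The promoter of Mt1 is shown because the metal-sensing factor MTF-1 is known to act through repeated short elements there. The window is chr8:94178839-94179138, plus strand of GRCm38.p6, and capitals mark the matches to TGCACNC or TGCGCNC with no mismatch on either strand.
Mt1: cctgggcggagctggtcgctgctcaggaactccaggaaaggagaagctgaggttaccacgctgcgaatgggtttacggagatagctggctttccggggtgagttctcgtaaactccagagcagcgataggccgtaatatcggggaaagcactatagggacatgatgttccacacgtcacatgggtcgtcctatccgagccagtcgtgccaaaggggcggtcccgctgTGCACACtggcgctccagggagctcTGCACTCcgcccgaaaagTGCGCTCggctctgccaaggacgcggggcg
There are 3 matches, all on the gene's strand, centred 20 bases before and 5 and 23 bases after the start site. At least 1 match is in 25.7% of all windows and at least 3 in 1.97%, and at least 1 is in 41.6% of the genes that rose and in 37.5% of the tested genes.

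Genes of sodium absorption, which aldosterone drives in the distal colon, were called in part. Sgk1 (mm9 chromosome 10, 21714472 to 21719708, plus strand), the kinase that keeps the epithelial sodium channel at the surface, was at 6633, 5029.8, 5307 and 6551 in F/F naive and 14416, 21952, 18395 and 21226 in DIEC naive. The means were 3.23-fold apart, and no library of one group reached the other (log2 change 1.68 ± 0.14 SE, adjusted p = 2.6e-06). The channel's β subunit, Scnn1b, was at 622.1, 523.4, 459 and 435.1 in F/F naive and 847.8, 706.1, 1067 and 1119 in DIEC naive and rose (log2 change 0.86 ± 0.19 SE, adjusted p = 0.026). Its γ subunit, Scnn1g, was at 490.7, 385.6, 228.9 and 464 in F/F naive and 667.7, 566.9, 931.4 and 1481 in DIEC naive (log2 change 1.17 ± 0.31 SE, adjusted p = 0.08), without overlap but not called. The α subunit, Scnn1a, was at about the same level in both groups, 5909 ± 710.0 to 5906 ± 656 (log2 change 0.0 ± 0.08 SE, adjusted p = 1). Fxyd4, which adjusts the sodium pump, rose from 1589.7 ± 401 to 3391 ± 835 (log2 change 1.09 ± 0.24 SE, adjusted p = 0.031), and Tsc22d3, a glucocorticoid target known as GILZ, from 2945 ± 119 to 3942 ± 580.0 (log2 change 0.41 ± 0.09 SE, adjusted p = 0.016).

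Of 16 genes listed for the response to aldosterone and glucocorticoids 3 rose, Sgk1, Scnn1b and Tsc22d3, and none fell (18.8%, median log2 change 0.16). Single libraries mattered for Scnn1b (0.055 to 0.093 without F/F naive 2, 3 or 4 or DIEC naive 1, 3 or 4), Fxyd4 (0.071 to 0.1 without F/F naive 2, 3 or 4 or DIEC naive 1, 2 or 4) and Tsc22d3 (0.054 without F/F naive 3, 0.063 and 0.058 without DIEC naive 2 and 3), which then missed the threshold. Cldn8 (mm9 chromosome 16, 88561071 to 88563428, minus strand), a claudin that seals the junction against sodium, was at 2989, 3882, 3226 and 2415 in F/F naive and 6476, 7300.2, 6369 and 6746 in DIEC naive, with the groups apart (log2 change 1.12 ± 0.14 SE, adjusted p = 0.00032). Besides Cldn8, 1 of the 22 junction genes rose, Tjp3 (log2 change 0.31 ± 0.08 SE, adjusted p = 0.046). The water channel Aqp4 fell from 22544 ± 2509 to 10478 ± 2396 (log2 change -1.13 ± 0.22 SE, adjusted p = 0.013), a call lost without F/F naive 3 (0.051). Slc16a1, the butyrate and lactate carrier MCT1, rose from 10234 ± 835 to 15600.3 ± 586 (log2 change 0.61 ± 0.1 SE, adjusted p = 0.0024). Slc16a1 and Aqp4 were the called genes among 24 markers of absorptive colonocytes, whose median log2 change was 0.12.

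Arg2 (mm9 chromosome 12, 80231775 to 80257288, plus strand), the mitochondrial arginase that turns arginine into ornithine and urea, was at 99.9, 141.7, 79.1 and 84.7 in F/F naive and 1112, 1420.4, 1264 and 906.5 in DIEC naive. The DIEC libraries were all at least 6 times the highest F/F library, and the means were 11.6-fold apart (log2 change 3.54 ± 0.24 SE, adjusted p = 4.7e-07). Its last bases overlap Vti1b, which had a log2 change of -0.0 ± 0.07. Ass1, which feeds the synthesis of arginine, fell from 233 ± 28.8 to 151 ± 12.5 (log2 change -0.62 ± 0.13 SE, adjusted p = 0.012), a call lost without F/F naive 3 (0.053). Ggt1, the γ-glutamyltransferase that opens glutathione breakdown, was at 57.3, 27.0, 53.1 and 83.7 in F/F naive and 394.6, 221.1, 162.3 and 172.5 in DIEC naive, and Slc7a9, the light chain of the carrier for cystine and basic amino acids, at 151.6, 93.5, 139.2 and 289.4 in F/F naive and 730.8, 664.2, 455 and 831.1 in DIEC naive. Both rose without overlap (2.09 ± 0.37, adjusted p = 0.007 and 2.07 ± 0.4, adjusted p = 0.014), and Slc7a9 was lost without F/F naive 3 (0.051). Pipox, which oxidises pipecolate and sarcosine, fell from 133 ± 21.8 to 43.6 ± 11.1 (log2 change -1.61 ± 0.19 SE, adjusted p = 9.6e-05).

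Several low genes were among the largest rises. G6pc2, a glucose-6-phosphatase known from pancreatic islets, was at 23.6, 11.6, 8.3 and 12.4 in F/F naive and 161.8, 93.7, 47.9 and 36.3 in DIEC naive (log2 change 2.38 ± 0.55 SE, adjusted p = 0.032). Klk15, a kallikrein protease, was at 139.2, 51.1, 35.4 and 26.9 in F/F naive and 372.8, 165.6, 220.9 and 249.9 in DIEC naive (log2 change 2.22 ± 0.4 SE, adjusted p = 0.008). In G6pc2, Klk15 and Ggt1 DIEC naive 1, the library with the most acinar reads, was the highest of its group. Without it Klk15 (2.01, adjusted p = 0.029) and Ggt1 (1.82, adjusted p = 0.017) kept their calls and G6pc2 did not (1.99, adjusted p = 0.088). G6pc2 was also lost without F/F naive 2 (0.1), 3 (0.12) or 4 (0.072) or DIEC naive 2 (0.093). The part of acinar reads in these values was not tested.

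Dio3, the deiodinase that inactivates thyroid hormone and is itself a thyroid hormone target, was at 6.7, 6.8, 4.7 and 3.1 in F/F naive and 16.1, 13.6, 18.6 and 18.6 in DIEC naive, few reads but with the groups apart (log2 change 1.52 ± 0.27 SE, adjusted p = 0.003). Dio3os, transcribed from the opposite strand 1161 bp away, was at 21.3, 11.6, 13.0 and 16.5 in F/F naive and 96.4, 52.8, 70.5 and 64.7 in DIEC naive (log2 change 2.12 ± 0.21 SE, adjusted p = 1.5e-05). Of 10 thyroid hormone targets 2 rose, Dio3 and Bcl3, an inhibitor-like regulator of NF-κB (log2 change 0.79 ± 0.12 SE, adjusted p = 0.0011), with a median of -0.01. Higd1c rose as well (log2 change 1.77 ± 0.39 SE, adjusted p = 0.024), but its exons overlap Methig1, so its reads are uncertain, and it was lost without F/F naive 2, 3 or 4 or DIEC naive 1 or 2 (0.058 to 0.089).

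In the circadian clock 3 genes rose. Arntl (mm9 chromosome 7, 120350979 to 120457640, plus strand), the clock activator BMAL1, was at 605.3, 1153, 1030.2 and 859.8 in F/F naive and 1681, 1639.7, 1924 and 1685 in DIEC naive, and every DIEC library lay above every F/F library (log2 change 0.96 ± 0.16 SE, adjusted p = 0.0034). Npas2, which partners BMAL1, was at 315.6, 627.5, 637.2 and 480.6 in F/F naive and 972.8, 991.8, 1051 and 1285 in DIEC naive (log2 change 1.1 ± 0.18 SE, adjusted p = 0.0026), also without overlap. F/F naive 1 was the lowest library for both. Bhlhe40, a repressor of the same loop, rose from 3908 ± 928 to 6225 ± 1089.6 (log2 change 0.69 ± 0.14 SE, adjusted p = 0.015), and was lost without F/F naive 3 (0.06). Nr1d1, which encodes REV-ERBα, the repressor that recruits NCoR1 to Arntl, was at 5783, 4544, 4359 and 5164 in F/F naive and 7776, 7672, 7353 and 8212 in DIEC naive. Its groups did not overlap but it was not called (log2 change 0.65 ± 0.23 SE, adjusted p = 0.21), while edgeR called it (adjusted p = 0.027). Per2 had a log2 change of 0.2 ± 0.25, adjusted p = 0.76. Of 17 clock genes 3 rose and none fell (17.6%, median log2 change 0.18). The labels do not give the hour at which the pools were collected.

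The promoter of Arntl is shown because REV-ERB and its activating counterparts, the ROR receptors, are known to share a binding site with an A- and T-rich flank. The window is chr7:113207261-113207560, plus strand of GRCm38.p6, 1 of 2 that RefSeq gives for the gene. Capitals mark the only match to TAGGTCA or TGGGTCA, with no mismatch and both strands searched, and TAGGTCA contains the AGGTCA of the repeats above.
Arntl: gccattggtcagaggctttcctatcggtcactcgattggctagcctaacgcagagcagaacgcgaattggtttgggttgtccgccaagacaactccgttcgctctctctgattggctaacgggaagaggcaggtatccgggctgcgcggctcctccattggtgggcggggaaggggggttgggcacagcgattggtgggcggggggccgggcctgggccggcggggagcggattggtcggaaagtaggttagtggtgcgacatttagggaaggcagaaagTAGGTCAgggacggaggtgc
The match is centred 33 bases after the start site. Such a match is in 6.45% of all windows, in 8.13% of the genes that rose and in 6.59% of the tested genes.

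Genes of secreted crypt and goblet cell proteins were among the largest falls, and F/F naive 4 stood apart in each of those named here. Mptx1 (mm9 chromosome 1, 176260649 to 176263008, plus strand), a pentraxin of the mouse gut, was the most abundant, at 298526, 389122, 372185 and 86525 in F/F naive and 48679.6, 55756, 22486 and 43202 in DIEC naive. Retnlb (mm9 chromosome 16, 48816969 to 48819005, plus strand), the goblet cell protein RELMβ, which acts on bacteria, was at 16793, 31802, 34894 and 1691 in F/F naive and 516.2, 1225, 670.6 and 230.3 in DIEC naive. Itln1 (mm9 chromosome 1, 173448255 to 173465425, minus strand), intelectin, a lectin for bacterial sugars, was at 1188, 2103, 2196 and 114.7 in F/F naive and 67.7, 60.0, 30.6 and 49.0 in DIEC naive. In each, 3 F/F libraries were high, F/F naive 4 was several times lower, and it was still above every DIEC library. The log2 changes were -2.62 ± 0.44 for Mptx1, -4.57 ± 0.88 for Retnlb and -4.14 ± 0.77 for Itln1 (adjusted p = 0.0073, 0.016 and 0.013). Without F/F naive 4 they were -3.12, adjusted p = 0.00013 for Mptx1, -5.56, adjusted p = 0.00057 for Retnlb and -5.12, adjusted p = 1.7e-06 for Itln1.

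Pla2g4c, a cytosolic phospholipase A2, was at 1326, 4146, 1799.6 and 107.5 in F/F naive and 52.8, 87.4, 93.1 and 48.0 in DIEC naive (log2 change -3.9 ± 0.85 SE, adjusted p = 0.031). It repeated the pattern, with F/F naive 4 between the other F/F libraries and the DIEC libraries. Ang4, a ribonuclease of crypt secretory cells, was at 32265, 54042, 50216 and 5956 in F/F naive and 5845, 7499.5, 3312 and 2609.8 in DIEC naive. There F/F naive 4 lay within the range of the DIEC libraries, and the gene was not called (log2 change -2.61 ± 0.76 SE, adjusted p = 0.12). Without F/F naive 4 its log2 change was -3.33, adjusted p = 0.021. In a model of only the 8 libraries without DSS, which estimates the spread from these alone, none of Mptx1 (0.071), Retnlb (0.1), Itln1 (0.1) and Pla2g4c (0.15) was called. With voom on the recovered reads Itln1 (0.17) and Pla2g4c (0.22) were not called either. Retnlb was also lost without F/F naive 2 or 3 (0.057 and 0.061) or DIEC naive 4 (0.052), and Pla2g4c without any 1 library other than F/F naive 4 (0.056 to 0.1).

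Of 18 goblet cell markers Retnlb was the single call, 3 and 4 were higher and lower at an unadjusted p under 0.05, and the median log2 change was -0.07. The mean log2 level of the list, taken relative to each gene's mean over 16 libraries, was -0.19 to 0.57 over the F/F libraries, lowest in number 4, and -0.29 to 0.15 over the DIEC libraries, and its part in the falls above was not tested. Muc2, the gel-forming mucin, was at 104757, 139743, 227161 and 72629 in F/F naive and 95017, 133230.2, 166557 and 83275 in DIEC naive (log2 change -0.12 ± 0.3 SE, adjusted p = 0.89), with F/F naive 4 and DIEC naive 4 the lowest of their groups. Clca1, a protease of the mucus, had a log2 change of -0.89 ± 0.33, adjusted p = 0.22, Zg16, a mucus lectin, of 0.07 ± 0.14, adjusted p = 0.86 and Tff3, a trefoil peptide, of 0.26 ± 0.22, adjusted p = 0.63. Of 25 genes of antimicrobial and epithelial defence 2 rose and 3 fell (median log2 change -0.19), and 17 of the 25 had negative log2 changes. At an unadjusted p under 0.05 in limma 2 and 11 were higher and lower, against 6.01% and 7.82% of all genes tested. For this list edgeR called 2 higher and 3 lower, and DESeq2 called 2 higher and 7 lower. Dmbt1, a mucosal scavenger receptor, rose from 112889 ± 9151 to 163282 ± 11041 (log2 change 0.53 ± 0.09 SE, adjusted p = 0.0026), and Sprr2a1, an epithelial protein with an antibacterial role, from 236 ± 10.3 to 372 ± 72.7 (log2 change 0.64 ± 0.13 SE, adjusted p = 0.0091). Sprr2a1 and Sprr2a2 share their coordinates and their values, so they are a single measurement. Besides Retnlb and Itln1, Pigr, which carries IgA into the lumen, fell from 146686 ± 7679.7 to 110100.0 ± 10340.5 (log2 change -0.42 ± 0.09 SE, adjusted p = 0.018). Its call was lost with TMM (0.055) and without F/F naive 2 (0.083) or 3 (0.051) or DIEC naive 1 (0.051), 2 (0.06) or 4 (0.057). Colon tissue was measured as a whole, and in all these values fewer cells of a type and less RNA per cell cannot be told apart.

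**Figure D3:**
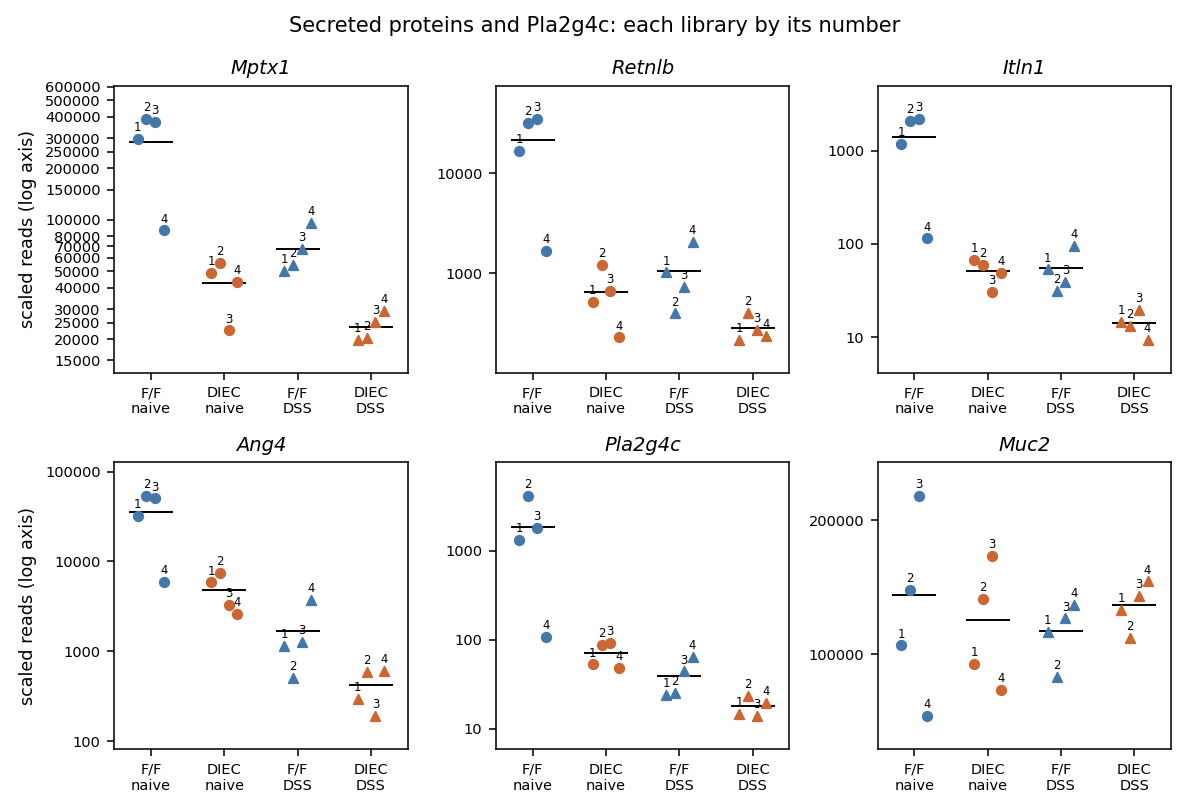
Scaled reads (log axis) of 6 genes in each of the 16 libraries, each point marked with the number of its library, blue for F/F and orange for DIEC, circles without DSS and triangles with DSS, bars at the group means. F/F naive 4 is the lowest F/F naive library in all 6, as for Mptx1 at 86525 against 298526 to 389122, and it falls within the range of the DIEC naive libraries in Ang4 and below it in Muc2.

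The other falls of named genes were smaller. Tldc2, of unknown role in the colon, was at 250.4, 223.6, 210.0 and 315.2 in F/F naive and 103.2, 103.7, 89.2 and 113.7 in DIEC naive (log2 change -1.27 ± 0.14 SE, adjusted p = 4.4e-05). Cpn2, a subunit of carboxypeptidase N, fell from 86.1 ± 11.4 to 35.7 ± 7.11 (log2 change -1.26 ± 0.18 SE, adjusted p = 0.00044), and Pcdh17, a protocadherin, from 226 ± 27.7 to 97.8 ± 17.6 (log2 change -1.21 ± 0.19 SE, adjusted p = 0.00099). Grpr, the receptor of gastrin-releasing peptide, fell from 137 ± 55.3 to 50.2 ± 9.93 (log2 change -1.34 ± 0.28 SE, adjusted p = 0.012), a call lost without F/F naive 2 (0.057) or 3 (0.06). Krt36, a hair-type keratin found in the colon surface, was at 67.4, 81.9, 67.3 and 53.7 in F/F naive and 20.6, 29.1, 41.2 and 17.6 in DIEC naive (log2 change -1.34 ± 0.33 SE, adjusted p = 0.043). It had an adjusted p of 0.053 with TMM and 0.099 with edgeR, and was lost without any 1 library other than DIEC naive 3 (0.054 to 0.14).

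The lists of cytokines and chemokines and of hypoxia genes held 1 and 4 calls, where 2.23% of all genes tested were called. Il18 (mm9 chromosome 9, 50373473 to 50389942, plus strand), the epithelial cytokine of the interleukin-1 family, was at 3871, 3909, 3100.0 and 3186 in F/F naive and 6952, 8438, 5604 and 6005 in DIEC naive, with the groups apart (log2 change 0.93 ± 0.11 SE, adjusted p = 7.6e-05), and was the 1 gene called among 29 cytokines and chemokines, whose median log2 change was -0.32. Of 15 hypoxia genes 2 rose and 2 fell (26.7%): Epas1, which encodes HIF-2α, rose from 3995 ± 593 to 6401 ± 373 (log2 change 0.69 ± 0.1 SE, adjusted p = 0.00052) and Vegfa from 3216 ± 306 to 4568 ± 310.0 (log2 change 0.51 ± 0.11 SE, adjusted p = 0.011), while Car9 (log2 change -0.32 ± 0.07 SE, adjusted p = 0.024) and Ndrg1 (log2 change -0.44 ± 0.1 SE, adjusted p = 0.026) fell. Vegfa was lost without F/F naive 2 (0.051), Car9 without any 1 library other than DIEC naive 3 (0.051 to 0.099) and with TMM (0.052), and Ndrg1 without F/F naive 1, 3 or 4 or DIEC naive 1, 2 or 4 (0.059 to 0.085).

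Of 23 exporters and enzymes of the response to bile acids and xenobiotics, Abcb1a, which encodes P-glycoprotein, rose from 15112 ± 1827 to 23129 ± 2638 (log2 change 0.61 ± 0.12 SE, adjusted p = 0.0063) and Abcc2 from 130.0 ± 29.1 to 231 ± 41.1 (log2 change 0.84 ± 0.17 SE, adjusted p = 0.008), while Abcc3 fell from 6201 ± 582 to 4494 ± 362 (log2 change -0.46 ± 0.09 SE, adjusted p = 0.007). Tuft cells, the chemosensory cells of the epithelium, were marked by 13 genes, all with negative log2 changes and a median of -0.5. Trpm5, their cation channel, was at 261.6, 348.9, 339.8 and 300.7 in F/F naive and 218, 203.8, 259.4 and 164.6 in DIEC naive (log2 change -0.57 ± 0.14 SE, adjusted p = 0.039), and Alox5ap, which serves leukotriene synthesis, at 399.8, 306.5, 275 and 257.3 in F/F naive and 251.2, 221.1, 177 and 189.2 in DIEC naive (log2 change -0.55 ± 0.14 SE, adjusted p = 0.046). Both calls were lost without 6 of the 8 single libraries, all but F/F naive 1 and DIEC naive 3 for Trpm5 (0.063 to 0.14) and all but F/F naive 4 and DIEC naive 1 for Alox5ap (0.07 to 0.16), and with edgeR neither passed (0.05 and 0.053).

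Markers of leukocytes had negative medians with 1 call in limma. The mean log2 level of the B and plasma cell list, relative to each gene's mean over 16 libraries, was 0.13 to 0.88 in F/F and -0.45 to 0.38 in DIEC, and that of the T and NK cell list -0.05 to 0.61 and -0.59 to 0.23. The median log2 changes were -0.68 over 14 markers of B and plasma cells, -0.64 over 16 of T and NK cells, -0.4 over 17 of monocytes and macrophages and -0.58 over 18 genes of antigen presentation. Prdm1, which drives plasma cells and is also made in epithelium, was the only gene of these lists called by limma. It was at 253.8, 259.3, 251.4 and 238.7 in F/F naive and 181.3, 168.3, 208.9 and 194 in DIEC naive, with the groups apart (log2 change -0.42 ± 0.1 SE, adjusted p = 0.037), but lost its call with TMM (0.051), with edgeR (0.052) and without any 1 library other than DIEC naive 3 (0.055 to 0.12). Jchain, the joining chain of IgA, was at 43020.4, 30273, 39109 and 30821 in F/F naive and 27534, 25886, 16229.9 and 20327 in DIEC naive, without overlap but not called (log2 change -0.68 ± 0.23 SE, adjusted p = 0.18). B2m and H2-K1, the common chain and a heavy chain of MHC class I, had log2 changes of -0.55 ± 0.28, adjusted p = 0.4 and -0.01 ± 0.16, adjusted p = 0.99, and Lyz2 and C1qb of macrophages of -0.44 ± 0.24, adjusted p = 0.45 and -0.4 ± 0.23, adjusted p = 0.47. At an unadjusted p under 0.05 limma had 2 of the B and plasma cell genes, none of the T and NK cell genes, 4 of the macrophage genes and 1 of the antigen presentation genes lower, and 1 macrophage gene higher. Across these 4 lists edgeR called none, DESeq2 called 2 B and plasma cell genes lower and 1 macrophage gene higher and 1 lower, and voom called 1 B and plasma cell gene lower. In the model of the 8 libraries without DSS 6 of the antigen presentation genes, 2 of the T and NK cell genes and 1 of the B and plasma cell genes were called lower. A further list, of neutrophil markers, had 12 genes tested, a median of -0.18 and no call in limma. At an unadjusted p under 0.05 it had 1 and 1 higher and lower. Each of edgeR, DESeq2 and voom called 1 neutrophil marker higher.

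Several lists held no call in limma. The 22 genes of proliferation had log2 changes of -0.45 to -0.1 with a median of -0.25, Mki67 at 5929.6 ± 2537 to 4911 ± 1191 and Top2a at 4666 ± 1867 to 3825 ± 901. For these and for 21 genes of the type I interferon response (median -0.4), limma had none at an unadjusted p under 0.05, and edgeR and DESeq2 called none. For 19 genes of crypt stem cells and Wnt targets (-0.02) 1 and 2 were higher and lower at that level, and edgeR and DESeq2 called none. For 19 genes of the unfolded protein response (-0.31) 7 were lower at that level, against 7.82% of all genes tested, edgeR called none and DESeq2 2. Hspa5, the chaperone BiP, was at 24995, 32647, 32731 and 47143 in F/F naive and 21341, 24107, 29521 and 38806 in DIEC naive, with the groups overlapping (log2 change -0.27 ± 0.23 SE, adjusted p = 0.64). For 17 markers of enteroendocrine cells (-0.0) 1 and 1 were higher and lower, and edgeR and DESeq2 each called 1 higher. Insl5, a peptide hormone of colonic L cells, had a log2 change of -0.18 ± 0.14, adjusted p = 0.61.

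Markers of cells beneath the epithelium gave no call in limma or edgeR. Smooth muscle (11 markers) and enteric neuron and glia (13) each had 4 genes lower at an unadjusted p under 0.05, against 7.82% of all genes tested, and DESeq2 called none. Fibroblast and matrix (13) and endothelial (9) lists each had 2 lower, with 1 and 0 called by DESeq2, and the 9 adipocyte markers had 0, with none called by DESeq2. The medians of these lists were -0.23, -0.22, -0.26, -0.18 and 0.33. Negative log2 changes were found in 11, 13, 13, 7 and 0 of their markers, in the same order, while 41.0% of all genes tested had positive ones. A change in the make-up of the tissue was not tested. Acta2, the smooth muscle actin, was at 37933 ± 5654 to 30775 ± 2351 and Vip, a neuropeptide, at 1425 ± 253 to 1345 ± 245. The 11 pancreatic acinar markers had a median of 2.25, none at an unadjusted p under 0.05 and no call in limma, edgeR or DESeq2. Their reads followed single libraries, as for Ctrb1, a chymotrypsinogen, at 2174, 23.1, 10027 and 19870.0 in F/F naive and 120040.2, 15612, 3902 and 966.3 in DIEC naive. Of 17 genes of glutathione and the NRF2 response only Gsta4, a glutathione transferase, was called (log2 change 0.45 ± 0.12 SE, adjusted p = 0.047).

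**Figure D4:**
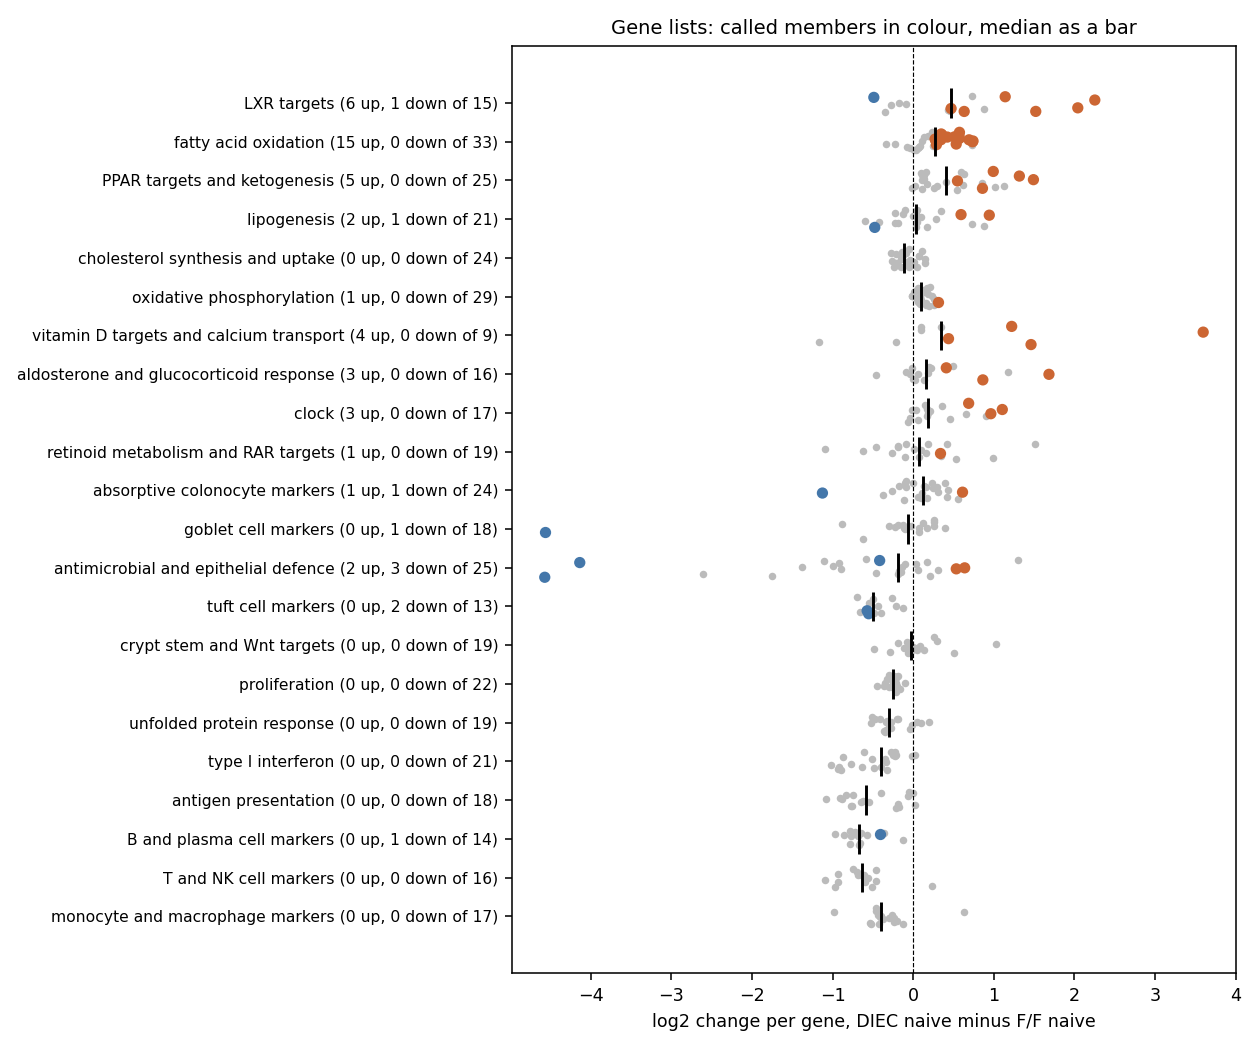
Each row is a list of genes and each point a member, with its log2 change of DIEC naive minus F/F naive on the x axis, called members in colour (orange higher, blue lower) and the median of the list as a black bar. Fatty acid oxidation has 15 of 33 members called higher and a median of 0.27, while lists such as proliferation (-0.25) and type I interferon (-0.4) lie left of 0 with no member called.

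The effects of the deletion were set beside those in mice given DSS, a comparison that shares no library with the one above. Both came from 1 model of all 16 libraries and so share the estimate of each gene's spread. The calls without and with DSS were therefore not fully independent. TMM rescaling moved the log2 changes with DSS by a median of 0.19 and those without DSS by 0.037, so both scales are given. Of the 258 genes that rose without DSS, 202 (78.3%) also rose with DSS on the TMM scale, where 6.69% of all genes rose and 14.0% were called either way, and 176 (68.2%) on the deposited scale, where 3.28% did and 29.3% were called either way. Of the 150 that fell, 73 (48.7%) also fell on the TMM scale, against 7.34% of all genes, and 108 (72.0%) on the deposited scale, against 26.0%. Calls in the opposite direction numbered 0 and 5 on the TMM scale and 2 and 2 on the deposited scale. On the TMM scale with DSS the log2 change was 3.71, adjusted p = 2.8e-07 for Arg2, 2.63, adjusted p = 3.9e-11 for Abcg1 and 3.14, adjusted p = 0.0031 for S100g (limma). For Retnlb and Itln1 the changes with DSS were not called, at -1.5, adjusted p = 0.31 and -1.61, adjusted p = 0.2.

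The difference between the effects without and with DSS was tested directly, as the interaction of genotype and DSS, and is given where it passed on both scales. On the deposited scale this difference was called for 3.63% of all genes (3.34% positive and 0.29% negative) and with TMM for 0.64% (0.377% and 0.262%). Both were passed by 16 of the 408 genes, 4 that rose and 12 that fell without DSS. The 408 were selected by the effect without DSS, which is part of this difference, and that selection by itself favours a called difference. The share of all genes that passed on both scales was not counted. Chd3, at 2271, 2279.7, 2340.0 and 2707 and 4682, 4370.3, 4846 and 4347 without DSS, was at 3251, 2981, 2877 and 2929 in F/F DSS and 4209, 3568, 3312 and 3693 in DIEC DSS. It rose in both settings, less with DSS (difference of log2 changes 0.64 ± 0.11, adjusted p = 0.0081, and 0.036 with TMM). Hacd3, a dehydratase of fatty acid elongation, rose without DSS (log2 change 0.32 ± 0.08 SE, adjusted p = 0.047) and had a log2 change with DSS of -0.16, adjusted p = 0.2 on the TMM scale (difference 0.67 ± 0.11, adjusted p = 0.0071), although its call without DSS was lost without any 1 library other than F/F naive 1 (0.066 to 0.19). Sprr2a1 rose more with DSS (difference -0.7 ± 0.18, adjusted p = 0.042).

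Among the falls, Krt36 was at 53.4, 42.8, 117.9 and 73.2 in F/F DSS and 154.2, 376.3, 284.3 and 168.3 in DIEC DSS, so that it rose with DSS and fell without (difference -3.11 ± 0.47, adjusted p = 0.0057). Prdm1 turned in the same way, at 145, 146, 170.2 and 136 in F/F DSS and 246, 248.5, 262.2 and 267.4 in DIEC DSS (difference -1.19 ± 0.15, adjusted p = 0.00074). Ak4, a mitochondrial adenylate kinase, fell without DSS from 550.0 ± 108 to 242 ± 21.0 (log2 change -1.17 ± 0.17 SE, adjusted p = 0.0008) and had a log2 change of 0.51, adjusted p = 0.078 with DSS on the TMM scale (difference -1.48 ± 0.25, adjusted p = 0.0065). Tnip3, an inhibitor of NF-κB signalling, fell without DSS (log2 change -0.58 ± 0.1 SE, adjusted p = 0.0027) and rose with DSS on the TMM scale (0.46, adjusted p = 0.01; difference -0.84 ± 0.14, adjusted p = 0.0065). Cpn2, which fell without DSS, had a log2 change of -0.04, adjusted p = 0.92 with DSS on the TMM scale (difference -1.03 ± 0.25, adjusted p = 0.033). Pyroxd2, a mitochondrial oxidoreductase, fell in both settings, from 604 ± 113 to 376 ± 46.6 without DSS (log2 change -0.67 ± 0.14 SE, adjusted p = 0.0092), and fell further with it (difference 1.16 ± 0.19, adjusted p = 0.0065). The other 7 were Sprr2a2, Zc3h12a, Capn13, St8sia1, Pcdhb6, L1cam and Tlr4, given without their values to complete the 16.

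**Figure D5:**
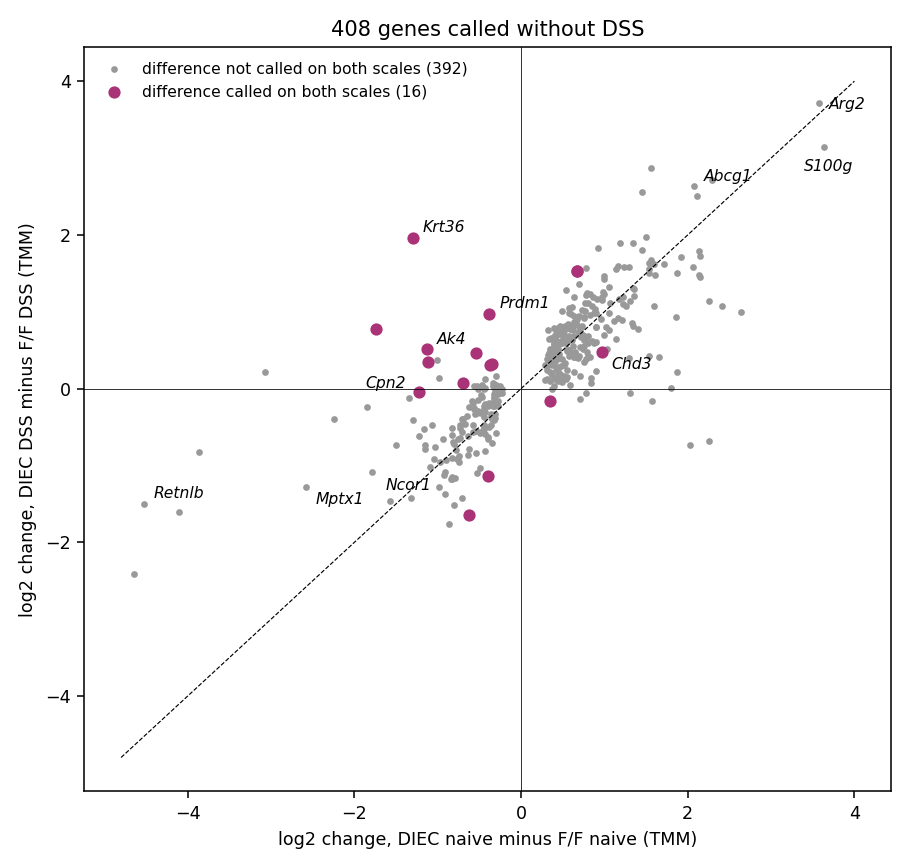
Each point is 1 of the 408 genes called without DSS, with its log2 change on the TMM scale without DSS on the x axis and with DSS on the y axis, and the dashed line where they are equal. The 16 genes whose difference passed on both scales are enlarged, with Krt36 and Prdm1 above 0 with DSS and below 0 without, while Arg2 lies near the line.

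Some of the called genes were neighbours. Within 50 kb of each other 32 pairs of called genes were found, 31 of them changed in the same direction. As 7 pairs overlap and may share reads, the 25 that do not were counted apart, and 24 of those had the same direction. Among the 11916 pairs of adjacent tested genes that do not overlap, called or not, 56.9% had the same sign. Called pairs can have other genes between them and changes large enough to be called, so the 2 sets are not alike. On mm9 chromosome 9, from 50341192 to 50411954, Bco2, Tex12, Il18 and Sdhd lie in a row and all rose (log2 changes of 1.5, 1.31, 0.93 and 0.31), 4 of the 12 tested genes in the surrounding window. Timm8b, next to Sdhd, had a log2 change of 0.37 ± 0.1 (adjusted p = 0.064). On chromosome 4 Ppcs, an enzyme of coenzyme A synthesis, Zmynd12 and Rimkla lie side by side and rose by 0.67, 1.31 and 1.02, 3 of 6 tested genes there. On chromosome 11 Kdm6b, a histone demethylase, and Dnah2, near Chd3, rose by 0.51 and 0.75, 3 of 10 with Chd3 itself. Cyb5d1, Naa38 and Tmem88 lie between Chd3 and Kdm6b and were not called (log2 changes of 0.14, 0.0 and 0.13). On chromosome 7 Syt8 rose from 116 to 353 (1.57 ± 0.23, adjusted p = 0.0011) beside Tnni2, 2 of 7 tested genes there. Around Arg2 2 of 8 tested genes were called. Each window was drawn around a gene already called, which raises these counts, and 2.23% of all genes tested were called. Tex12, Zmynd12, Rimkla, Ppcs, Dnah2, Kdm6b, Syt8 and Tnni2 were chosen after their values were seen.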

How the data were processed

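Bulk RNA-seq values of mouse colon were taken as deposited, 1 column for each of 16 libraries. Each is a signal value per gene: the authors counted reads over exons with HOMER and divided them by 1 factor per library, per the file headers, which name mm9 gene models. The submitters' processing notes name bcl2fastq, STAR 2.2.0c, HOMER 4.9 and the build mm10. Log2 fold changes and p-values in the authors' deposited table were only compared with the calls made here. The file header names a strand option and the labels a kit that in its standard form does not mark strand, so overlapping and antisense genes are uncertain.

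Values were tested as log2(value + 1) with limma 3.58.1 (R 4.3.3; trend and robust empirical Bayes) in 1 model of all 16 libraries with a mean per group, over the 18267 of 24421 genes that reached 1 in 4 or more libraries. P-values were adjusted by Benjamini-Hochberg and called under 0.05. They measure the spread between pools of 3 mice. The difference of the effects without and with DSS was a contrast of that model. Whole reads were recovered from the steps of low values in all 16 libraries (100.0% of values under 200 reads lay within 0.011 of a whole multiple). On those of 15 of them, with F/F DSS 1 left out, 15793 genes were tested with edgeR 4.0.16, DESeq2 1.42.0 and voom. Other alternatives were TMM rescaling, a pseudocount of 0.5 or 5, no filter, a minimum of 10, the replicate number as a block, only the 8 libraries without DSS, and leaving out each library. Of these tests, only the main limma fit, for the comparison without DSS, was checked on simulated data.

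Gene lists, tests and the rule for named genes were chosen with earlier results of these data known. The rule took Ncor1, the 12 largest non-overlapping rises and falls with a mean of at least 50 in the higher group, the 10 smallest adjusted p, up to 5 called members of each list by adjusted p (with up to 2 abundant members where fewer than 2 were called), and the 6 smallest interaction adjusted p. Genes outside it were chosen after their values were seen: Mt2, Slc30a1, Slc34a2, Ass1, Fxyd4, Ang4, Muc2, Tff3, Srebf1, Mylip, Apoe, Nr1h2, Hdac3, Gps2, Ppara, Ppard, Scnn1a, Scnn1g, Cpt1a, Acaa2, Hadha, Hadhb, Etfa, Etfdh, Decr1, Hadh, Acadvl, Acot2, Acadm, Acads, Fasn, Smpdl3a, Nr1d1, Per2, Car1, Gkn1 and Lct. Values of some single genes are not reported here, while counts and medians of lists cover all their tested members.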

Additional observations from a re-analysis of the deposited data

Results flagged for a closer look

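In 7 groups of 4 libraries, of the 206 examined, 1 library lay far from the other 3, and chance alone does so in about 1 of 20 groups. F/F naive 4 was the highest of its group for Tbl1x (1209 scaled reads), Mt2 (3250.2) and Chd3 (2707), F/F naive 1 for Slc30a10 (778.2), DIEC naive 4 for Gps2 (946.7) and DIEC naive 3 for Arntl (1924), while DIEC naive 3 was the lowest of its group for Abcg5 (767.7). For 9 of the named genes the effect of the deletion without DSS differed from that with DSS, by the interaction in limma on the deposited scale and after TMM rescaling. The differences of log2 changes, without minus with DSS, were 0.64 for Chd3, -3.11 for Krt36, -1.03 for Cpn2, -0.7 for Sprr2a1, -1.19 for Prdm1, 1.16 for Pyroxd2, -0.84 for Tnip3, -1.48 for Ak4 and 0.67 for Hacd3.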

How the results depend on the processing

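Of 103 named genes 87 were called and 49 kept their call in every setting, with 0 reversed. Calls lost numbered 5 with TMM, 7 with edgeR, 9 with voom, 1 with DESeq2, 16 in a model of only the 8 libraries without DSS and 5 with the replicate block. The 408 calls without DSS became 448 (324 higher, 124 lower) with TMM, 611 (295 and 316) in that model of 8 libraries, 475 with edgeR and with voom, 843 (579 and 264) with DESeq2 and 647 (390 and 257) with edgeR on the same 8, the last chosen after seeing the data. The pseudocounts and filters gave 398 to 433. Leaving out each library gave 233 to 386. With DSS 5346 genes were called (599 higher, 4747 lower), 2565 with TMM (1223 and 1342), 2022 with edgeR, 2522 with DESeq2, 1944 with voom and 4025 to 5845 without single libraries. The interaction called 664 genes, 117 with TMM, 66 with edgeR, 366 with DESeq2, 59 with voom and 144 to 1662 without single libraries. The cause was not tested. Over all genes tested, deviations of same-numbered F/F and DIEC naive libraries correlated at 0.058, -0.031, 0.073 and 0.006. Single lists could still run alike by number. The mean log2 level of the unfolded protein response list, relative to each gene's mean over 16 libraries, was highest in number 4 of both groups (0.65 and 0.37). That of the pancreatic acinar list was highest in F/F naive 4 (6.05) and DIEC naive 1 (8.38). Whether same-numbered pools belong together was not tested further. With the replicate block the counts were 513 (287 higher, 226 lower) without DSS, 5865 with DSS and 1247 for the interaction. With 4 pools a group, small changes of genes that vary between pools were not detectable.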
